A study of Homo sapiens with 18 samples.

Results

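The comparison described here is between MAX binding sites mapped in cells with wild-type MYC (WT) and MAX binding sites mapped in cells with a MYC mutant that the labels call 7A. It uses 2 of the 3 deposited peak lists, made from 8 of the 18 libraries of the series, and takes every peak of both lists: 34622 in the WT list and 25159 in the 7A list. The cells were U2OS, a human osteosarcoma line, with their own MYC gene knocked out and a doxycycline-inducible (Dox) copy of MYC-WT or MYC-7A put in. For each MYC form 4 MAX immunoprecipitation libraries were made, 2 after Dox at 1 µg/ml for 24 h and 2 after the vehicle PBS, beside 2 inputs, with mouse NIH3T3 cells added at 10% for scaling. Both groups therefore share the MYC knockout, the inducible transgene and the mouse cells, and differ in the MYC form of the transgene. The 2 libraries after PBS come from cells in which the transgene was not induced, and the level of MYC in them was not measured here. A site in a list need not come from cells that held that MYC form. The sources used here give neither the residues that 7A changes nor whether each line is 1 clone. The labels name a MAX antibody for these libraries, while a protocol text describes an anti-FLAG antibody. Each list joins libraries with and without Dox in its name, has no replicate, and cannot be split by Dox, so all values below describe 2 lists and no difference between them has a replicate check or a p-value.

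MAX is a small basic helix-loop-helix leucine zipper protein that binds DNA only as part of a dimer. MYC needs MAX to bind DNA, and so do the MXD proteins, MNT and MGA, which compete with MYC for it, so a MAX peak can mark any of these dimers. The preferred site is the E-box CACGTG, and in proliferating cells MYC and MAX also sit at most active, GC-rich gene starts, with the genes of ribosomes, nucleotide synthesis and the cell cycle among the best known targets.

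Promoter stretches of 120 bases are shown for 7 genes to let a reader see what lay under sites that were strong in both lists, lower in the 7A list or higher in it. They are upstream bases read 5′ to 3′ on the gene's own strand from RefSeq (GRCh38.p14), each holding the peak summit, with canonical E-boxes in capitals. PTPRS, a receptor tyrosine phosphatase gene, and ATL3, an endoplasmic reticulum gene, were among the sites strongest in both lists. EPHA8, an ephrin receptor gene, and COIL, which encodes the Cajal body protein coilin, had 2 of the 10 largest losses of rank in 7A. GPS2, a subunit of a corepressor complex, and BCAS2, a splicing factor, had 2 of the 10 largest gains. TDRD9, a germline RNA helicase gene, had a 7A peak and no WT peak.
PTPRS (chr19:5340943-5341062, minus strand): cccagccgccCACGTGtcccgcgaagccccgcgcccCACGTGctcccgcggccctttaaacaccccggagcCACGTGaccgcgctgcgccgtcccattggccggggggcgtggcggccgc
ATL3 (chr11:63671507-63671626, minus strand): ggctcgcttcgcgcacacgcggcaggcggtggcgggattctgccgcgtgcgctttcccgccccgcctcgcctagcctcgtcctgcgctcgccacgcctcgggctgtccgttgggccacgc
EPHA8 (chr1:22563285-22563404, plus strand): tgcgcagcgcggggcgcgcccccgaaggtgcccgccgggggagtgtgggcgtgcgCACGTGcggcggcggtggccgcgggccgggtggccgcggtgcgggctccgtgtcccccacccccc
COIL (chr17:56961051-56961170, minus strand): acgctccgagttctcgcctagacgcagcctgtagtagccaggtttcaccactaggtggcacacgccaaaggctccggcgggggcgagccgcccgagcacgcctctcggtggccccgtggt
GPS2 (chr17:7315382-7315501, minus strand): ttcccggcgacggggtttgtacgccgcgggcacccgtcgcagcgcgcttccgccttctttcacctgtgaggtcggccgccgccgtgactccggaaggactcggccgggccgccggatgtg
BCAS2 (chr1:114581660-114581779, minus strand): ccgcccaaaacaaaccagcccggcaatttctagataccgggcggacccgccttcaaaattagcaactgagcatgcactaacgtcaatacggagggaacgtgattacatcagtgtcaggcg
TDRD9 (chr14:103928282-103928401, plus strand): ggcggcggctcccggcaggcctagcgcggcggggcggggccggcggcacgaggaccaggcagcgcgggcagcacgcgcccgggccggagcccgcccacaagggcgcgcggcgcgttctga
The PTPRS stretch holds 3 canonical E-boxes and the ATL3 stretch 0, although both sites stood near the top of both lists. EPHA8 holds 1 E-box, whose centre lies 2.5 bp from the WT summit, and its site was among those that lost most rank. The stretches of COIL, GPS2, BCAS2 and TDRD9 hold 0 canonical E-boxes. The E-box variant CACGCG, read on either strand, does occur in the stretches of ATL3 and TDRD9.

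Before any site is compared, the lists differ in depth and length. The WT peaks covered 24.9 Mb with a median width of 552 bp, the 7A peaks 19.96 Mb with a median width of 672 bp. Median fold enrichment, the peak caller's linear ratio of immunoprecipitation to background at the summit, was 10.7 in WT and 11.1 in 7A. Read coverage at each summit was recovered from the deposited fold and −log10 p for 94.6% of WT and 95.5% of 7A peaks. In WT the immunoprecipitation coverage came in steps of 0.696, so those reads had been scaled down, and in 7A in steps of 1. At the sites named below, recovered backgrounds often lay close to whole numbers in WT and rarely in 7A. The backgrounds may therefore also have been scaled differently, and every comparison of background between the lists carries this limit. At 19636 shared sites the median coverage was 219.3 in WT, or 315 before scaling, and 165 in 7A, over a background of 14.0 and 12.5. Over all peaks of each list it was 140.6 in WT, or 202 before scaling, and 144 in 7A. The WT list thus had more unscaled reads at a typical site, and the part of this in the counts below was not tested. For that reason each count is given on the full lists and again with the WT list cut to the 25159 peaks of highest −log10 q, which is the length of the 7A list.

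Of the 34622 WT peaks, 10422 (30.1%, 95% interval 29.6 to 30.6%) shared no base with a 7A peak. These lost sites were the weaker ones: they had a median fold of 7.59 and a median width of 334 bp, while WT peaks that kept a partner had 13.0 and 723 bp. They were also isolated, with a median distance of 20757 bp to the nearest 7A peak, and 9.73% lay within 1000 bp of one. Of WT peaks with a summit within 1000 bp of a protein-coding gene start, 8.95% were lost, against 41.1% in gene bodies and 40.6% outside genes. At equal length 4560 WT peaks (18.1%) were lost, and the shares were 4.55% at gene starts, 28.1% in gene bodies and 26.8% outside genes. The intervals, which cover counting error only, reach 4.97% at gene starts and begin at 25.8% outside genes. The gap was also present within like strengths. In the lowest quintile of WT peaks by −log10 q, 19.8% were lost at gene starts and 49.5% in gene bodies, and in the highest quintile 0.352% and 3.23%. In turn 43.0% of 7A peaks lay at gene starts, against 33.7% of all WT peaks and 40.5% of the shortened WT list.

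In the other direction, 855 of the 25159 7A peaks (3.40%) shared no base with any WT peak. Their median fold was 7.11, and 82 of them lay at gene starts. At equal length 4363 7A peaks had no partner, but 3508 of these, or 80.4%, did meet a WT peak that fell below the length limit. Only the 855 met no WT peak at all. The very strongest sites were common to both lists. Of the 100 strongest WT peaks by fold 0 lacked a 7A partner, which allows a share of up to 3.62%, and of the 1000 strongest 6 did. Of the 1000 strongest 7A peaks 1 lacked a WT partner. Membership of the top differed more: 21 of the strongest 100 peaks and 444 of the strongest 1000 in one list were also in the strongest 100 or 1000 of the other.

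**Figure D1:**
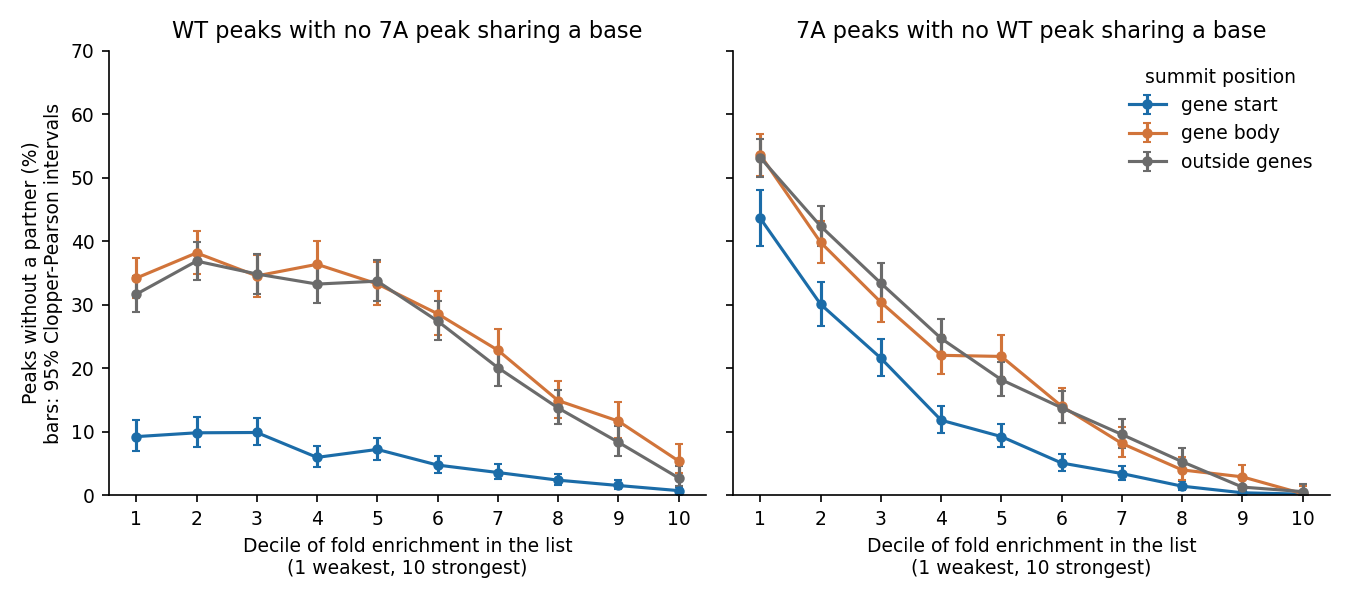
Share of peaks without a partner in the other list (vertical axis, percent) by decile of fold enrichment (horizontal axis), for both lists at 25159 peaks, by summit position; bars are 95% Clopper-Pearson intervals. In the strongest decile 5.41% of WT peaks in gene bodies and 0.742% at gene starts had no 7A partner, while the weakest 7A peaks lacked a partner in 53.6% of gene bodies and 43.6% of gene starts.

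The strongest lost sites lay away from gene starts. In the body of PI4K2A, a lipid kinase gene, a WT peak (hg38, chromosome 10, 97659439 to 97659949) had a fold of 87.2 and a coverage of 435.1 over a background of 4, and the nearest 7A peak was 10085 bp away. A WT peak outside genes on chromosome 12 (30844495 to 30844838) had a fold of 67.7 with the nearest 7A peak 21812 bp away. Another on chromosome 3 (142279801 to 142280319) had 55.6 and 54047 bp. Single strong sites could thus be present in one list with no 7A peak close by, but 2 of the 5 strongest did not show this. The WT peak in the body of ERCC1, a DNA repair gene, had a fold of 55.7 and a 7A peak 215 bp away, and one outside genes on chromosome 1 (1907062 to 1907807) had 57.7 and a 7A peak 597 bp away. The strongest gained sites were weaker. In the body of RIOK1, a ribosome biogenesis kinase gene, a 7A peak (chromosome 6, 7414803 to 7415124) had a fold of 34.8 and a coverage of 133 over 2.85, with the nearest WT peak 24491 bp away. A 7A peak outside genes on chromosome 7 (9719350 to 9719623) had a fold of 22.7, and no WT peak lay within 517722 bp.

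Among lost peaks at gene starts the strongest was at ZNF580, a zinc finger gene (chromosome 19, 55639894 to 55641670), with a WT fold of 49.0 and no 7A peak at the gene. PPARGC1A, the mitochondrial biogenesis coactivator (chromosome 4, 24472989 to 24473543), had 44.5. The architectural chromatin gene HMGA1 (chromosome 6, 34237058 to 34238782) had 42.5, CASKIN1, a synaptic scaffold gene, 38.9, and ACTL8, an actin-like gene, 35.5. At these 5 genes the 7A list had nothing within 1000 bp of the start, yet for HMGA1 a 7A peak began 351 bp from the WT peak, and for ACTL8 the nearest was 106108 bp away. At the other 5 of the 10 strongest a second 7A peak served the gene. JADE2 had a WT fold of 47.6 and another 7A peak of 14.9, ANKMY1 45.5 and 44.4, STUB1 39.3 and 19.1, NFIA 39.1 and 18.2, and FTL, the ferritin light chain gene, 38.5 and 18.4. A lost peak was therefore not always a gene without MAX.

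Gained peaks at gene starts were fewer and weaker after the first. ZBTB38, a methyl-CpG binding zinc finger gene, had a 7A peak of 41.7 with no WT partner, but a WT peak stood 258 bp away and the gene had a WT peak of 33.9. TDRD9, shown above, had a 7A fold of 19.5 from a coverage of 81 over 3.20, and the nearest WT peak was 6383 bp away. PAK6, a kinase gene, had 16.5, with the nearest WT peak 27408 bp away. BCL6, the transcriptional repressor of germinal centre B cells, had 11.9, and PCDH18, a protocadherin gene, 11.6, with WT peaks 4983 and 21282 bp away. SGSM2 (13.8) and APLP1 (13.3) had WT peaks 279 and 217 bp away, and SCHIP1, CIC and TRIM2 had a second WT peak at the gene. Gained peaks thus lay at very different distances from the nearest WT peak.

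Sites present in both lists numbered 20507 at equal length. Summits of the paired peaks lay a median of 13 bp apart, and 82.1% lay within 50 bp. Each site's fold was turned into a percentile rank within its list, from 0 for the weakest to 100 for the strongest, because folds of separately scaled lists cannot be set against each other directly. Ranks moved by less than 25 points at 14632 sites (71.4%), were at least 25 points lower in 7A at 2465 (12.0%) and at least 25 points higher at 3410 (16.6%). The correlation of the ranks across sites was 0.629, a description over sites of 1 list each. The split between lower and higher followed the length of the lists: ranked in the full lists, 4709 sites were lower and 1831 higher, and ranked among the shared sites alone, 2947 and 3009. A balance towards either MYC form cannot be read from these counts.

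Sites whose rank differed also differed in local background. At sites lower in 7A the median fold was 19.7 in WT and 8.08 in 7A, the coverage 225.5 and 122, and the background 10.3 and 14.0. At sites higher in 7A the fold was 9.49 and 14.7, the coverage 157.3 and 167, and the background 16 and 10.3. As recovered, without correction for scaling, the 7A background was the higher one at 82.0% of sites lower in 7A, 7.44% of sites higher in 7A and 38.5% of all shared sites. Ranked by recovered coverage in place of fold, 1340 sites were at least 25 points lower and 1241 higher, and the rank correlation was 0.807. Of the sites lower by fold 88.1% were also lower by coverage in sign, but 699 of 2306 by 25 points. Of those higher by fold 86.8% kept the sign, and 856 of 3264 the size. The direction at a site was thus mostly shared by both measures, and the size was larger by fold. The measures are not separate, because coverage and background were solved from the same fold and −log10 p. Sites chosen by a change of fold tend by arithmetic to share its direction in coverage and to oppose it in background. What part the background has in the rank changes was not tested.

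**Figure D2:**
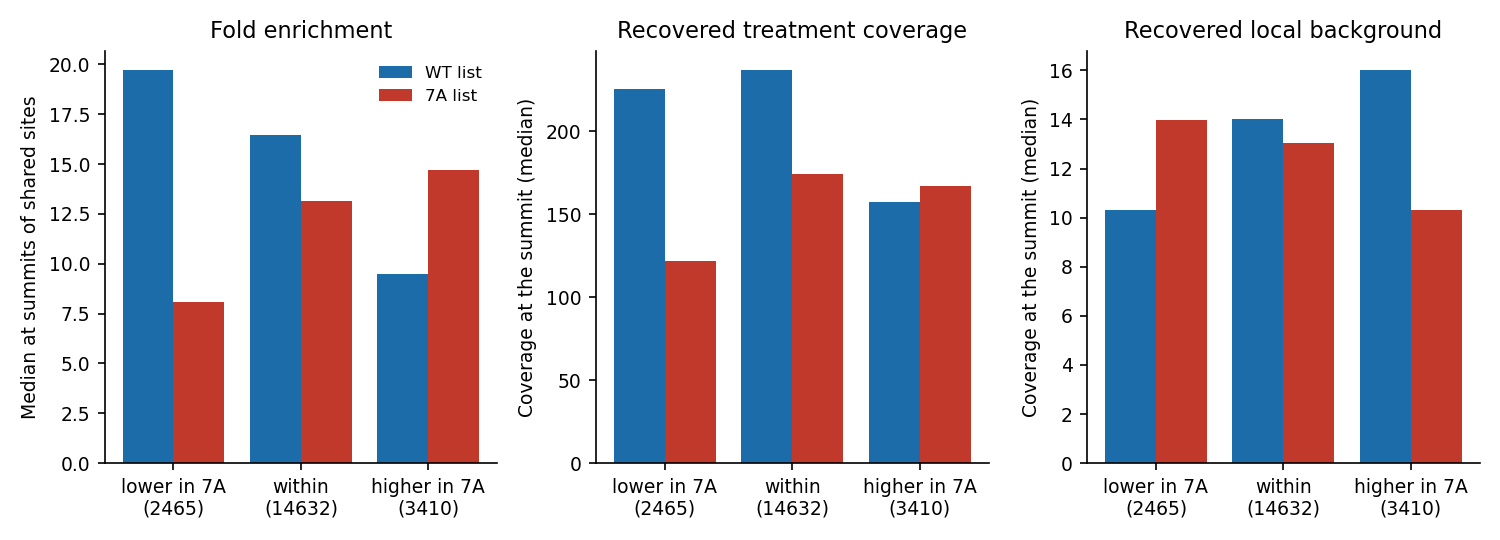
Medians at shared sites of fold enrichment (left), recovered immunoprecipitation coverage (middle) and recovered local background (right) in the WT and 7A lists, for sites at least 25 percentile points lower in 7A, within 25 points, and at least 25 points higher. Numbers of sites are under the bars, and each coverage and background median comes from the sites solved in that list. Background moved against the rank, from 10.3 to 14.0 where 7A was lower and from 16 to 10.3 where it was higher. Choosing sites by fold favours such a pattern, because fold is coverage over background.

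The largest loss of rank at a gene start was at TMEM33, an endoplasmic reticulum membrane protein gene (chromosome 4, 41934954 to 41936277). Its fold was 57.3 in WT and 4.42 in 7A, a move from rank 97.0 to 2.53, with a coverage of 858.3 over 14 in WT and 127 over 27.9 in 7A. RAB3A, a synaptic vesicle GTPase gene, went from 50.4 to 5.72 and RABEP1, an endosomal tethering factor gene, from 33.8 to 5.52. EPHA8, whose E-box is shown above, had 63.6 and 6.8. LIN28B, a repressor of let-7 microRNA maturation, had 54.2 and 7.81, with coverages of 324.4 and 65 over backgrounds of 5 and 7.45. DCUN1D5, a neddylation factor gene, had 43.7 and 7.12 and COIL 31.7 and 6.94. RIMS2, a presynaptic scaffold gene, had 19.8 and 3.88, and ELOF1, a transcription elongation factor gene, 25.3 and 6.10. At the 8 of these sites where coverage was recovered in both lists it was lower in 7A and the background higher, so both quantities moved. 

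The largest gain was at LOC128092248, a predicted gene (chromosome 9, 130712503 to 130713465), with a fold of 6.10 in WT and 25.8 in 7A. Its coverage, as the peak caller scaled it, was 139.2 in WT and 121 in 7A, and its background 22 and 3.74. Nearly equal scaled coverages were recovered at TOR1B, a torsin ATPase gene, with folds of 6.07 and 19.4 and coverages of 144.8 and 145. GPS2 had folds of 7.19 and 22.1 from coverages of 185.9 and 186. At GRN, the progranulin gene (chromosome 17, 44344898 to 44345425), coverage was also higher in 7A, with 132.3 over 16 in WT and 250 over 8.01 in 7A, for folds of 7.84 and 27.9. PDE1C, a phosphodiesterase gene, had 217.2 and 366 in coverage and 7.04 and 23.1 in fold. P4HA3, a collagen prolyl hydroxylase gene, had 123.9 and 233, and 5.00 and 17.9. BCAS2 had folds of 5.75 and 20.5, RERE, a nuclear receptor coregulator gene, 7.67 and 24.1, CYP46A1, the cholesterol 24-hydroxylase gene, 6.89 and 20.5, and HNRNPLL, a splicing regulator gene, 6.72 and 19.5. Coverages were 142.7 and 191 at BCAS2, 129.5 and 158 at RERE, 109.3 and 136 at CYP46A1, and 240.9 and 265 at HNRNPLL. In all 10 the WT background was above the 7A one. As the peak caller scaled it, coverage was lower in 7A at LOC128092248, about equal at TOR1B and GPS2, and higher at the other 7. WT reads had been scaled down and 7A reads had not, so these directions depend on the scaling and can differ before it.

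**Figure D3:**
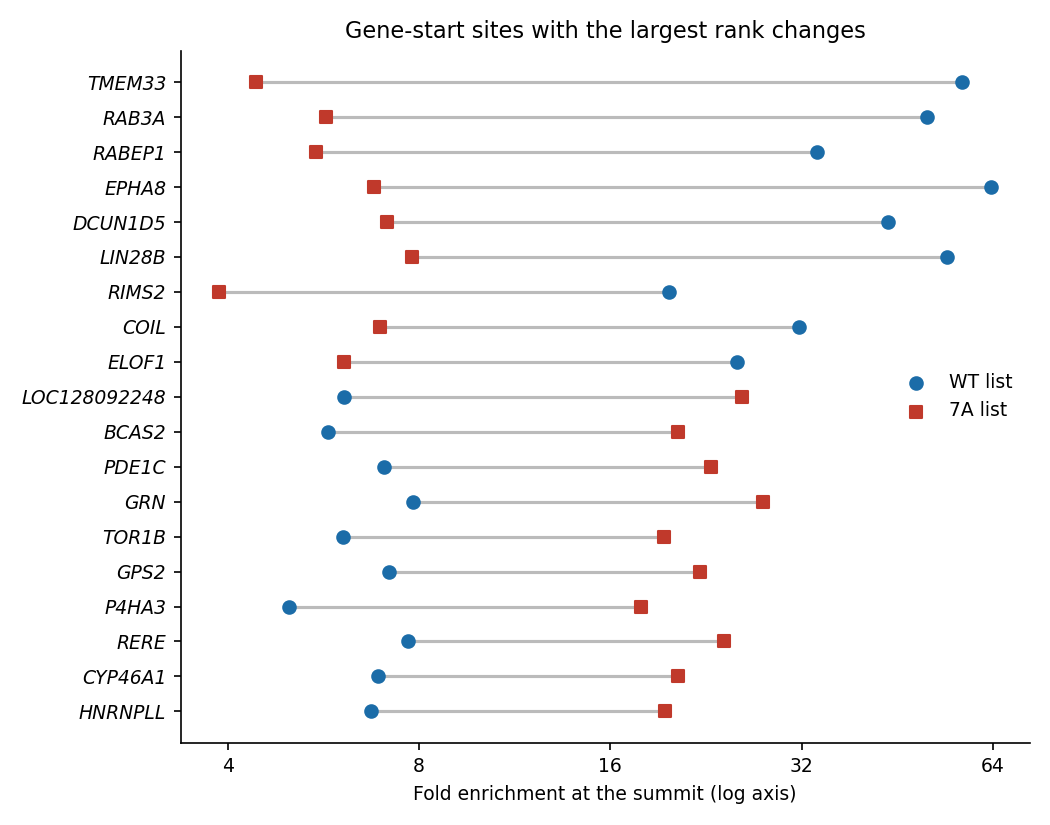
Fold enrichment at the summit (horizontal axis, log scale) in the WT list (circles) and the 7A list (squares) at 9 of the 10 gene-start sites that lost most rank in 7A and the 10 that gained most. The upper 9 run from TMEM33 at 57.3 and 4.42 to ELOF1 at 25.3 and 6.10, and the lower 10 from LOC128092248 at 6.10 and 25.8 to HNRNPLL at 6.72 and 19.5.

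The gene-start sites that ranked highest in both lists were chosen for that, so their folds are given as a description. PTPRS (chromosome 19, 5339627 to 5341444) had a fold of 212.5 in WT, the 3rd of its list, and 160.8 in 7A, the 15th. The start shared by HSF2BP and RRP1B, a meiotic recombination gene and a nucleolar protein gene, had 207.9 and 107.6. ODC1, ornithine decarboxylase and a long-known MYC target, had 112.9 and 123.0. ATL3 had 126.9 and 144.9, G6PC3, a glucose-6-phosphatase gene, 132.2 and 112.1, MTHFD1L, a mitochondrial folate enzyme gene, 140.7 and 97.6, ZNF280D, a zinc finger gene, 120.3 and 118.8, and NME2, a nucleoside diphosphate kinase gene, 136.2 and 90.9. The start shared by the olfactory receptor genes OR3A2 and OR1R1 had 145.4 and 118.4, and that of SLC33A2 176.0 and 104.3. The fold was lower in 7A in 8 of the 10, near the share among all ranked genes, of which 33.3% had a higher fold in 7A.

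Gene starts with an E-box ranked higher in both lists. Of 15812 gene starts with a 300-base sequence, from 250 bases before to 50 after the start, 9.37% held CACGTG, a palindrome that reads alike on both strands. The share was 11.8% of genes with a peak in both lists, 7.59% of those with a WT peak only (95% interval 5.48 to 10.2%), 7.38% of those with a 7A peak only (3.43 to 13.5%) and 5.69% of those with neither. Genes with 0, 1, and 2 or more E-boxes had median ranks of 63.8, 85.2 and 89.5 in WT and 65.5, 84.9 and 90.2 in 7A, so the order by E-box number was the same in both lists. Genes that stayed within 25 points held one in 14.1%, genes lower in 7A in 8.99% and genes higher in 6.60%. Within quintiles of mean rank, at least 25 points separated the lists for 48.3% of genes with an E-box and 43.2% of those without in the second quintile, 33.1% and 32.3% in the middle one, and 11.7% and 12.4% in the fourth. The 95% intervals overlapped in each. Among measured gene starts with a peak in both lists and an E-box, WT summits lay within 25 bp of it in 66.1% of 874. For 7A summits it was 59.2% of 888, against 12.8% and 14.3% for the mirrored positions. Both numbers are below the 1096 such starts that held an E-box.

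Other letters were counted in the same way. The E-box variant CACGCG, on either strand, was in 21.2% of starts with a peak in both lists and 7.45% of those in neither. It was in 15.7% of starts with a WT peak only, 10.7% with a 7A peak only and 15.8% of all starts. From the lowest to the highest quintile its share went from 12.2% to 31.7% by WT rank and from 13.3% to 30.4% by 7A rank. The ETS core CCGGAAG, on either strand, was in 21.0% of starts with a peak in both lists, 8.54% of those with a WT peak only and 14.6% of all starts. The CCAAT box was in 35.4%, 27.5% and 35.6%, and in 40.8% of starts higher in 7A against 29.8% of starts lower in it. The GC box GGGCGG was in 76.2% of starts with both, 68.1% of WT only and 60.4% of all. The AP-1 site TGANTCA was in 3.91%, 5.31% and 5.60%. Median GC content was 67.0% for genes in both lists, 66.3% for WT only and 63.3% for all starts. A match of these letters describes the sequence and is not a binding site.

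By gene, 11823 of 19974 protein-coding genes (59.2%) had a WT summit within 1000 bp of the start and 11297 (56.6%) a 7A summit, with 11140 in both. Of the 11823, 683 (5.78%) had no 7A summit there, and of the 11297, 157 (1.39%) had no WT one. At equal length these were 321 of 10685 (3.00%) and 933 of 11297 (8.26%). Of the 683, 56 still had their WT peak overlapped by a 7A peak whose summit lay beyond the window. The share followed the WT fold: 33.4% of genes with a WT fold under 5 had no 7A summit, 13.5% of those from 5 to 10, 4.31% from 10 to 20, 1.22% from 20 to 50, and 1 of 872 above 50. Of the 10364 genes ranked in both equal-length lists, 987 (9.52%) were at least 25 points lower in 7A and 1523 (14.7%) at least 25 points higher, with a median change of 1.42 points. Genes ranked above 90 in WT have little room to move up, and their median change was -3.09 points. For 295 of the 11140 genes the strongest WT and 7A peaks at the gene shared no base.

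Cytosolic ribosomal protein genes, which encode the subunits of the translating ribosome, kept their MAX peaks and stood lower among them in 7A. Of 78 genes, 73 had a WT and 72 a 7A gene-start peak. A WT peak only was seen at 2 (2.74%), beside 5.78% of all genes: RPL28 at 9.02 and RPS27 at 6.82, both weak. The median fold was 41.7 in WT and 19.9 in 7A, and 3 of 71 genes (4.23%) had a higher fold in 7A, against 33.3% of all ranked genes. Their median rank went from 93.4 to 81.1, 10 of 71 were at least 25 points lower and 0 higher, beside 9.52% and 14.7% of all genes, and the median change was -8.86 points. The change was larger than for genes of like WT rank. Among genes ranked above 90 in WT, 45 of 46 ribosomal protein genes moved down with a median of -7.56, against 71.7% and -3.09 of all 1842 genes, and between 70 and 90 the medians were -13.0 for 21 ribosomal protein genes and -3.59 for all.

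Recovered coverage gave nearly the same picture for these genes. By coverage rank their median change was -7.95, with 8 lower and 0 higher, against -0.157 for all genes, and by −log10 q rank it was -7.60, with 7 and 0. The median coverage was 642.5 in WT and 288 in 7A, over backgrounds of 15.0 and 13.0, while for all ranked genes it was 263.8 and 194. RPS28, a small-subunit protein whose start lies in the same peak as that of NDUFA7, had a fold of 36.2 in WT and 8.78 in 7A from coverages of 266.6 and 114 over 6.38 and 12.1. RPL34 had 31.5 and 8.89 from coverages of 534.6 and 190. RPL31 went the other way, with 31.8 and 45 from 921.6 and 1029, and RPS29 had 16.6 and 19.5. RPL7 had a 7A summit of 20.5 at its start and no WT summit, though a WT peak overlapped it. Ribosomal protein genes have many processed copies in the genome, and the sources used here do not say how reads matching several places were treated.

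**Figure D4:**
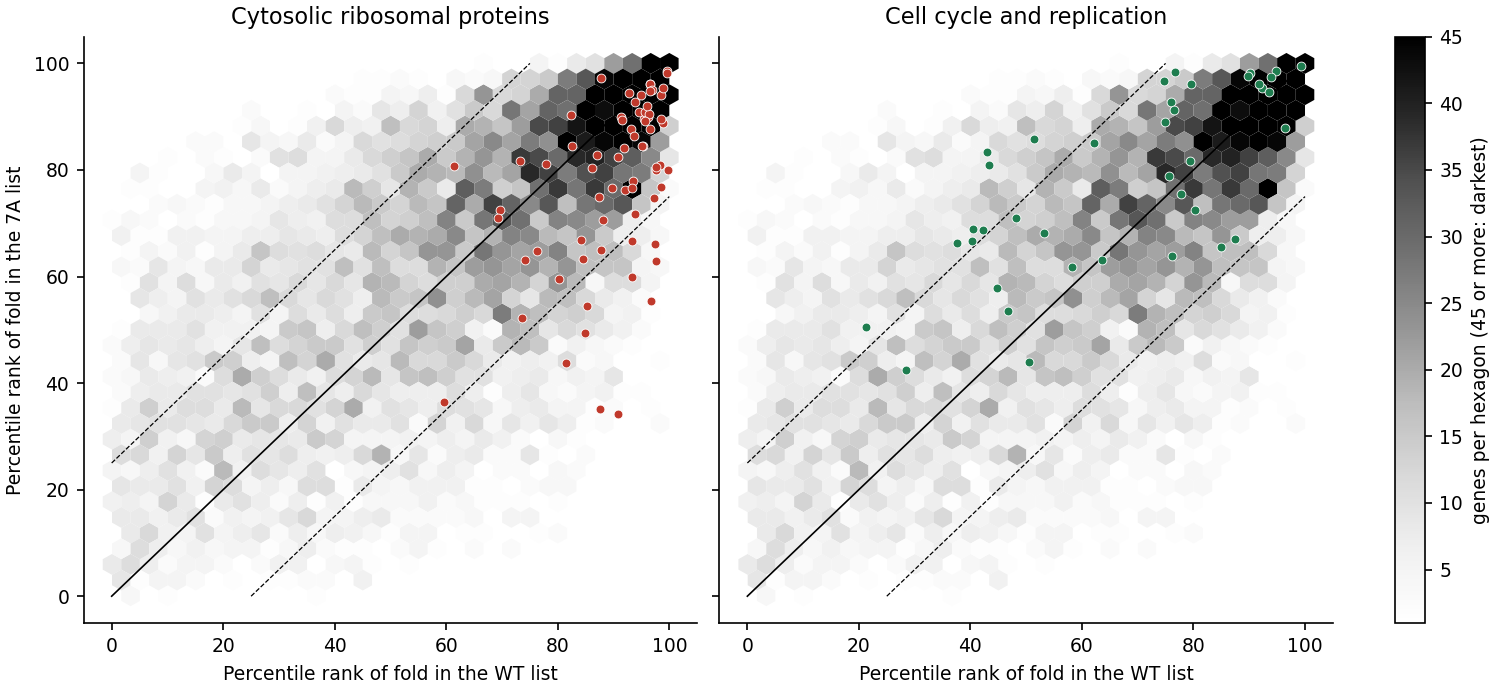
Percentile rank of fold in the WT list (horizontal axis) and the 7A list (vertical axis) for 10364 genes with a gene-start peak in both equal-length lists (grey hexagons, darker for more genes), with the 71 cytosolic ribosomal protein genes (left, red points) and the 39 cell cycle and replication genes (right, green points); the solid line marks equal rank and the dashed lines a change of 25 points. The red points lie mostly under the solid line and 10 under the lower dashed line, and of the green points 0 lie under the lower and 8 above the upper dashed line.

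Other growth gene lists had smaller medians and mixed counts. Mitochondrial ribosomal protein genes had a median change of -6.46 points over 71 genes, and -3.95 by coverage. By fold 9 (12.7%) were lower and 6 (8.45%) higher, beside 9.52% and 14.7% of all genes. The 14 of them ranked above 90 in WT had -7.27, with all 14 below 0, against 71.7% of all genes there. Their 2 largest losses were MRPL52 (22 to 6.26) and MRPS5 (25.1 to 7.38), and their 2 largest gains MRPL39 (10.3 to 20.9) and MRPL50 (6.91 to 11.2). Chaperonin and heat shock chaperone genes, which fold new proteins, had a median fold of 43.9 in WT and 20.9 in 7A. In rank 17 of 19 were lower, beside 4775 of all 10364 genes, with 2 (10.5%) lower and 0 higher by 25 points. Of the 11 ranked above 90 in WT, 10 were lower, against 71.7% of all genes there. PFDN2 went from 32 to 13.6 and PFDN5 from 14.8 to 7.07, while HSPA9, the mitochondrial HSP70 gene, went from 33.1 to 70.8 as its background went from 15.0 to 5.59. Ribosome assembly and RNA polymerase I genes had a median of -3.21 over 65 genes, and in those ranked above 90 in WT the median of -2.43 was close to the -3.09 of all genes. Within that list UBTF, the polymerase I activator, went from 21.2 to 7.39, and DDX47, a helicase of ribosome assembly, from 9.44 to 21.7 as its background went from 32 to 12.6. Translation factors had 4 lower (8.33%) and 7 higher (14.6%) of 48, shares near the 9.52% and 14.7% of all genes, with a median of -2.19 by fold and -6.19 by coverage. Their ends were EIF2S3, a subunit of the initiation factor that brings the first tRNA (60.3 to 9.19), and EIF4G3, an initiation scaffold (9.22 to 25.8). Backgrounds went from 2.85 to 13 at EIF2S3 and from 17 to 8.38 at EIF4G3. RNA polymerase III genes had 3 lower (15.8%) and 0 higher of 19, beside 9.52% and 14.7% of all genes, and 1 lower by coverage.

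Cell cycle and replication genes kept every gene-start peak and stood higher among them in 7A. All 40 genes with a WT peak had a 7A peak. Of all genes with a WT peak 5.78% had none, and at WT folds from 20 to 50 it was 1.22%, so few losses were to be found. Of 39 ranked genes 0 were lower by 25 points and 8 (20.5%) higher, beside 9.52% and 14.7% of all genes, the median change was 8.16 points, and 22 (56.4%) had a higher fold in 7A, against 33.3% of all ranked genes. Among genes ranked above 90 in WT, where all genes had a median of -3.09, these 8 had 3.26, and from 70 to 90 the 14 had 5.51, against -3.59. CDT1, which licenses replication origins, had a fold of 12.4 in WT and 20.9 in 7A, and GINS1, a subunit of the replicative helicase, 12.5 and 19.6. The largest losses were those of MAD2L1, a spindle checkpoint gene (31.5 to 14.6), and E2F3, an S-phase transcription factor gene (28.7 to 14.2). Background moved with this result. At CDT1 it was 35 in WT and 16.8 in 7A while coverage was 445.5 and 371, and at GINS1 28.0 and 16.8 with coverages of 360.6 and 347. By coverage rank the median change was 2.63 points, with 1 lower and 2 higher, and in the full lists by fold 2.11, with 0 and 0. The part of the background in this difference was not tested.

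Immediate early genes, which are switched on within minutes of a growth signal, had the largest share of WT-only starts among the lists. Of 30 genes outside the AP-1 family 22 had a WT and 15 a 7A gene-start peak, and 8 (36.4%) had a WT peak only, beside 5.78% of all genes. The strongest were CCN1, a matricellular protein gene, at 24.6, DUSP1, a MAP kinase phosphatase gene, at 19.5, KLF6, a zinc finger factor gene, at 18.9, and EGR1, a zinc finger factor gene, at 18.1. Of all genes 4.31% had a WT peak only at folds from 10 to 20 and 1.22% from 20 to 50. The other 4, named after their values were seen, were NR4A3 (10.4), EGR4 (9.90), ZFP36 (9.10) and EGR2 (7.51). For 6 of the 8 no 7A peak overlapped, and the nearest 7A peak was 494 bp away for NR4A3, 2141 bp for CCN1 and 24373 bp for KLF6. At DUSP1 and EGR1 a 7A peak did overlap, with its summit more than 1000 bp from the start. The 14 genes with a peak in both lists moved the other way, with 0 lower, 5 higher and a median of 16.6 points, beside 9.52% and 14.7% of all genes, led by SGK1 (9.15 to 17.6) and BTG2 (14.4 to 25.8). By coverage their median was 6.92, with 0 lower and 0 higher by 25 points, as the SGK1 background went from 31.0 to 14.0. By fold, the 10 of them ranked below 70 in WT had a median of 25.4 points, against 11.2 for all genes there. The 2 ranked above 90 had -1.40 and the 2 from 70 to 90 had -7.18. In the full lists the median of the 14 was 2.95, with 1 lower and 1 higher. ZFP36L1 had a 7A summit only, at 14.6, inside a stretch that a WT peak overlapped.

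Members of the AP-1 family, the bZIP factors FOS, JUN and their relatives, had WT gene-start peaks at 10 of 15 genes and 7A peaks at 9. FOS had a WT peak of 19.5 and no 7A summit at its start, although a 7A peak overlapped the WT one. JUNB had 11.6 in WT and 16.5 in 7A, JUN 11.1 and 9.92, JUND 41.9 and 40.9, and FOSB, by 2 separate peaks, 6.88 and 6.11. BATF3 had 42.2 and 33.5, MAFK 71.0 and 23.9, MAFF 27.5 and 26.4, MAFG 25.6 and 13.8, and JDP2 21.9 and 11.2. FOSL1, FOSL2, BATF, BATF2 and ATF3 had no gene-start peak in either list. The median change of the 9 ranked genes turned with the measure, from 3.18 by fold to -6.84 by coverage.

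The MAX network list holds the genes of MAX, its partners and the related MLX, MLXIP and MLXIPL. Of its 13 genes, 12 had a WT and 11 a 7A gene-start peak, and 11 had both. MYC had a WT peak of 8.48 at its start, and the nearest 7A peak was 17531 bp away. MYC is the gene knocked out in these cells, and what the edit changed at its start was not examined here. MYCN, its neuronal paralog (chromosome 2, 15939659 to 15940381), had 9.80 in WT and 26.4 in 7A, with coverages of 194.9 and 271 over backgrounds of 19.0 and 9.31. MYCL, another paralog, had 4.70 and 7.95, with coverages of 139.9 and 118 over backgrounds of 29 and 14. These 3 genes thus differed in direction. Among the partners that oppose MYC, MXI1 (chromosome 10, 110225736 to 110226456) had 34.5 and 9.48 with coverages of 309.8 and 132 over backgrounds of 8 and 13, MXD1 60.3 and 22.6, MXD3 74.3 and 47.0, MXD4 24.8 and 24.8, MNT 26.9 and 32.3, and MGA 53 and 60.9. MAX had 29.4 and 22.3, a rank change of -0.173 points. MLX had 18.9 and 12.3 and MLXIP 68.3 and 65.4, while MLXIPL, the glucose-sensing relative, had no gene-start peak in either list. By fold MXI1 stood past 25 points on the lower side, and MYCN and MYCL on the higher side. By coverage MXI1 (-29.8 points) and MYCN (28.8) did so and MYCL (4.21) did not.

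Collagen and matrix genes had 24 WT and 19 7A gene-start peaks among 34 genes, and 5 (20.8%) had a WT peak only, beside 5.78% of all genes, a pair of them through 1 shared peak. TNC, the tenascin gene, had 17.3 with no 7A peak within 95654 bp. COL4A1 and COL4A2, which lie head to head, share 1 WT peak of 11.3 with the nearest 7A peak 10420 bp away, and COL6A1 had 9.93. The other, COL5A1, had 6.18 and was named after its value was seen. In both lists FN1, the fibronectin gene, stood higher in 7A, with 6.69 and 10.6 from coverages of 166.4 and 256 over nearly equal backgrounds of 24.0 and 23.3, and COL18A1 lower, with 15.8 and 5.60. Actin cytoskeleton genes and targets of SRF differed in membership the other way. Of 35 genes 30 had a WT and 32 a 7A gene-start peak, and 4 had a 7A peak only, beside 1.39% of all genes with a 7A peak: CNN2 (13.5), ACTG1 (8.91), TAGLN (6.40) and FLNC (4.28), of which 2 had no WT peak overlapping. CFL1 (29.0) and TPM2 (27.6) had a WT summit only, each inside a stretch that a 7A peak overlapped. The 26 ranked genes had a median change of 7.35 points by fold and 6.18 by coverage, but -2.87 in the full lists.

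In 15 of the 31 gene lists, with 395 WT gene-start peaks among them, 0 genes had a WT peak only, beside 5.78% of all genes. These lists were picked for that count, among them the lists of translation factors, nucleotide synthesis, the proteasome, cholesterol synthesis and lysosomes. In the remaining gene lists single genes stood far apart between WT and 7A. The chromatin cofactor list had 5 lower (17.9%) and 3 higher (10.7%) of 28, beside 9.52% and 14.7% of all genes. Its median change was -7.32 points by fold, -2.74 by −log10 q and -1.34 by coverage. CREBBP, an acetyltransferase gene, had a fold of 14.2 in WT and 34.5 in 7A, with coverages of 254.8 and 236 over backgrounds of 17 and 5.87. HMGCS1, of cholesterol synthesis, had 8.77 and 18.05 while its background went from 28.0 to 14.2. BECN1, of autophagy, had 6.44 and 12.7 over backgrounds of 21 and 10.2, and ATP6V0D1, a proton pump subunit, 36.2 and 11.7. GAPDH had a WT summit only, at 50.2, inside a stretch that a 7A peak overlapped, and was the 1 of 872 genes above a WT fold of 50 with no 7A summit at its start. SYCE2, a meiotic synapsis gene, had 15.7 and 66.7 with coverages of 219.3 and 376 over backgrounds of 13.0 and 4.66. OLIG2, a gene of another tissue, had 44.0 and 11.2 over nearly equal backgrounds of 13.5 and 13.

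**Figure D5:**
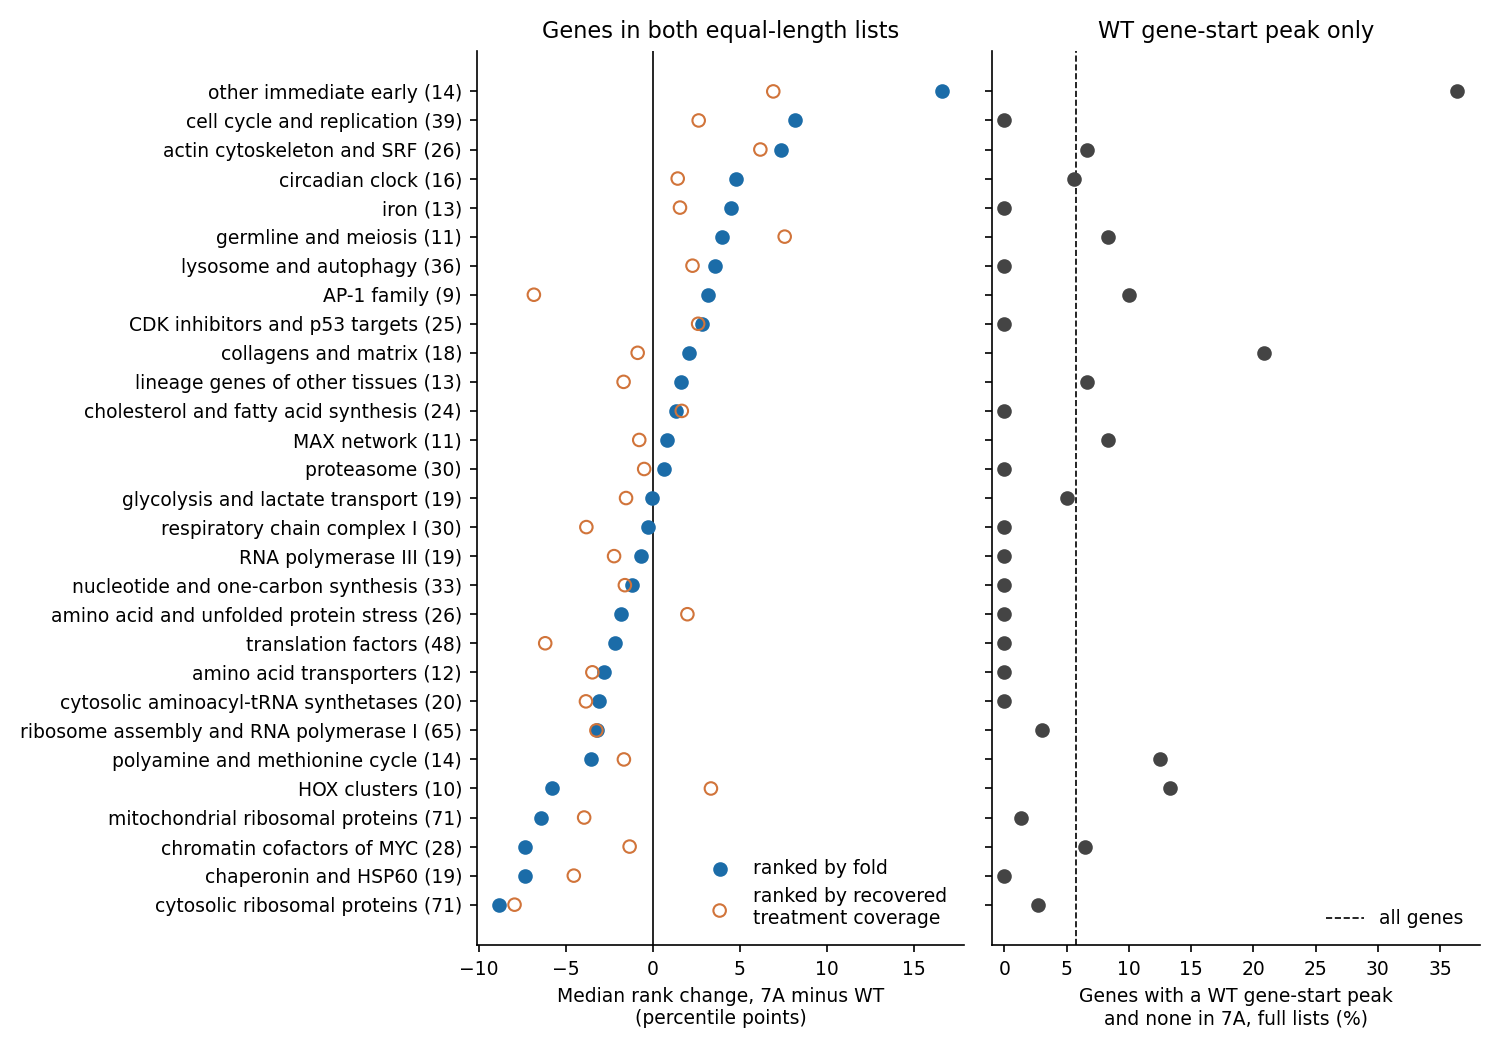
Median change of percentile rank, 7A minus WT, over the members ranked in both equal-length lists (left, numbers of genes in parentheses) by fold (filled points) and by recovered coverage (open points), and share of members with a WT gene-start peak and no 7A one in the full lists (right), for the gene lists with at least 9 ranked members; the dashed line is the 5.78% of all genes. Cytosolic ribosomal protein genes stand lowest at -8.86 by fold and -7.95 by coverage. Immediate early genes stand highest by fold at 16.6, with 6.92 by coverage and 36.4% WT only.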

How the data were processed

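ChIP-Rx is chromatin immunoprecipitation and sequencing with cells of another species mixed in. Per the submitters' processing notes, cutadapt, Bowtie2, SAMtools, Picard, MACS2 and the builds hg19, mm10 and hg38 were used, without versions or roles; peak positions fit hg38. The sources used here do not say whether libraries were pooled or which library served as control. The control may have been an input or a MAX immunoprecipitation without Dox, and what fold and background measure depends on which it was. The authors deposited 1 narrowPeak list per MYC form with, per peak, a linear fold ratio, a −log10 p and a −log10 q.

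Partners shared at least 1 bp. Ranks are of fold within a list, after cutting the WT list by −log10 q. Coverage was solved from fold and −log10 p with the MACS2 formulas. Gene starts came from RefSeq GRCh38.p14 (15812 genes with a start and strand, 4162 by either outer end). Shares have Clopper-Pearson intervals for counting error only. Named are the strongest partnerless peaks, the largest rank changes, the strongest shared starts, up to 4 WT-only and 4 7A-only members and the 2 largest changes each way of each gene list, and all MAX network and AP-1 members; 2 genes named by this rule are not reported here. Scripts were tested on simulated peaks. The members and gene lists were chosen with earlier results of these data known. Alternatives were other list lengths, thresholds, overlaps, windows and rank measures. Python 3.11.15, pandas 2.3.3, NumPy 2.4.6 and SciPy 1.17.1 were used. The 3A list, and any split by Dox, were not analysed here.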

Additional observations from a re-analysis of the deposited data

How the results depend on the processing

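Of 44 alternatives to 6 counts, 22 stayed within 1.5 times the value reported. This tally includes outcomes fixed in advance, because the 7A list was not shortened at equal length. Matching the shortened WT list to the full 7A list can only repeat 4560, and matching 7A peaks to the full WT list can only repeat 855. WT peaks without a 7A partner numbered 10422 on the full lists, 4560 at equal length by −log10 q, 5551 at equal length by fold and 2281 among the strongest 10000. For 7A peaks without a WT partner the values were 855, 4363, 5339 and 2241, and 2894 when summits within 250 bp defined a partner. Genes with a WT start peak only went from 683 to 321 at equal length. Genes with a 7A start peak only went from 157 to 933 at equal length, 1093 among the strongest 10000 peaks, 475 within 500 bp, 72 within 2500 bp and 73 over gene bodies. Shared sites lower in 7A went from 2465 to 4709 in the full lists, 1603 by −log10 q, 1340 by recovered coverage and 1273 among the strongest 10000, and sites higher in 7A from 3410 to 1831, 2181, 1241 and 1384. Ranking by coverage, and keeping only genes with a listed start, were chosen after seeing the data. The cause of these shifts was not tested, beyond fewer peaks being compared. No paired analysis was possible because each MYC form has 1 list with no replicate columns. At shared sites median coverage was higher in WT than in 7A, and the part of this in the weak sites was not tested.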

Other observations

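Genes that share the start of their name were looked at after the data were seen. Of 60 RNF genes with a WT gene-start peak, a name given to RING finger proteins, 0 had a WT peak only, and of 59 ranked 13 were at least 25 points higher in 7A and 2 lower, with a median change of 14.2 points, beside 14.7% and 9.52% of all ranked genes and 5.78% WT only. Of 359 ZNF genes with a WT peak, 29 (8.08%) had a WT peak only, with a 95% interval of 5.48 to 11.4%, which holds the 5.78% of all genes, and 55 of 284 ranked genes were higher and 36 lower. Of 130 provisional LOC genes with a WT peak, 24 (18.5%) had a WT peak only, the largest share of the 16 name groups counted.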
